A study of Arabidopsis thaliana with 39 samples.

Results

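The miRNAs miR822, miR839 and miR869 of Arabidopsis thaliana were followed through small RNA libraries of 13 conditions. All rows of the 9 stress tables whose name carried miR822, miR839 or miR869 were taken, with 1 row for each distinct sequence. This gave 5 mature sequences of 353 in the tables, namely miR822-5p, miR822-3p, miR839-5p, miR869.1 and miR869.2. The opposite strand of MIR839, miR839-3p, was not analysed here.

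All plants were of the wild type Col-0, and each condition was sequenced in 3 biological replicates, 39 libraries in all. Rosette leaves were taken from soil-grown plants under mild drought (D30, soil water content of 30%, with its watered control C30, both 27 days old) and under severe drought (D20, soil water content of 20%, with its watered control C20, both 30 days old). Seedlings of 15 days served for heat (37°C for 0.5 h in H0.5 and for 6 h in H6, with the unheated control H0). Other seedlings were moved for 24 h to liquid medium and sampled at 15 days. The salt group NaCl+ received 250 mM NaCl, the excess groups Cu+ and Cd+ received 10 µM of copper and of cadmium, and the deficiency groups Cu- and S- lacked copper and sulfur. These 5 treatments shared the control C. Each library held 10238448 to 10741289 reads, of which 1018693 to 5036688 were counted as miRNAs. The 3 NaCl+ libraries stood apart, with miRNAs making up 9.84 to 16.7% of the reads mapped to the genome, against 33.1 to 51.6% in the other 24 seedling libraries and 25.6 to 40.9% in the 12 leaf libraries. In such whole-organ samples, fewer cells that make a miRNA and fewer miRNA molecules per cell cannot be told apart.

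Most plant miRNAs are cut from a short, imperfect hairpin by DICER-LIKE 1 (DCL1). The precursors of miR822, miR839 and miR869 are long and nearly perfect hairpins, and they are known to be cut by DICER-LIKE 4 (DCL4), the enzyme that otherwise makes trans-acting siRNAs from double-stranded RNA. miR822 is known to act on transcripts of the DC1 family, which encode proteins with cysteine- and histidine-rich C1 domains. The targets of miR839 and miR869 are less well established and are not named here.

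The mature sequences are shown first because their pairing and overlap define what the read counts can separate. They are written 5′ to 3′ as the tables give them, with T for U, and the capitals mark the seed, bases 2 to 8.
miR822-5p: tGCGGGAAgcatttgcacatg
miR822-3p: tGTGCAAAtgctttctacagg
miR839-5p: tACCAACCtttcatcgttccc
miR869.1: aTTGGTTCaattctggtgttg
miR869.2: tCTGGTGTtgagatagttgac
All 5 were 21 nt long, as were 273 of the 353 sequences (77.3%), and 4 of them began with T, the first base of 198 of the 353 (56.1%). No seed was shared between members or with any other of the 353 sequences, so each member forms a seed group of its own.

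Each sequence had 1 exact match in the TAIR10.1 genome, on the minus strand. The match is that of the full sequence, while the counts also hold reads that the study trimmed at both ends to match them, and the origin of those reads is not fixed by it. miR822-5p lies at chr5:897287-897307 and miR822-3p at chr5:897067-897087, both in MIR822 (AT5G03552). The gene AT5G03553 overlaps MIR822 on the plus strand, which these sequences do not match. miR839-5p lies at chr1:25279138-25279158 in MIR839 (AT1G67481), where the noncoding gene AT1G08943 overlaps on the same strand. miR869.1 at chr5:15891625-15891645 and miR869.2 at chr5:15891614-15891634 both lie in MIR869 (AT5G39693).

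The precursors stood among the longer and more fully paired of 325 annotated Arabidopsis miRNA precursors when each was folded with RNAfold. MIR822 was 337 nt long, MIR869 295 nt and MIR839 264 nt, against a median of 145 nt and an upper quartile of 205 nt. In the predicted folds 83.1% of the bases of MIR822, 84.1% of MIR869 and 87.9% of MIR839 were paired, against a median of 73.0%. MIR839 ranked 3 of 325 in paired bases, MIR869 23 and MIR822 32. The folding energy per base was -0.691 kcal/mol for MIR839, -0.548 for MIR869 and -0.511 for MIR822, against a median of -0.394. The longest helix without a bulge had 25, 17 and 21 base pairs in MIR839, MIR869 and MIR822. These helices ranked 38, 99 and 57 of 325, against a median of 12 and an upper quartile of 19.

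**Figure D1:**
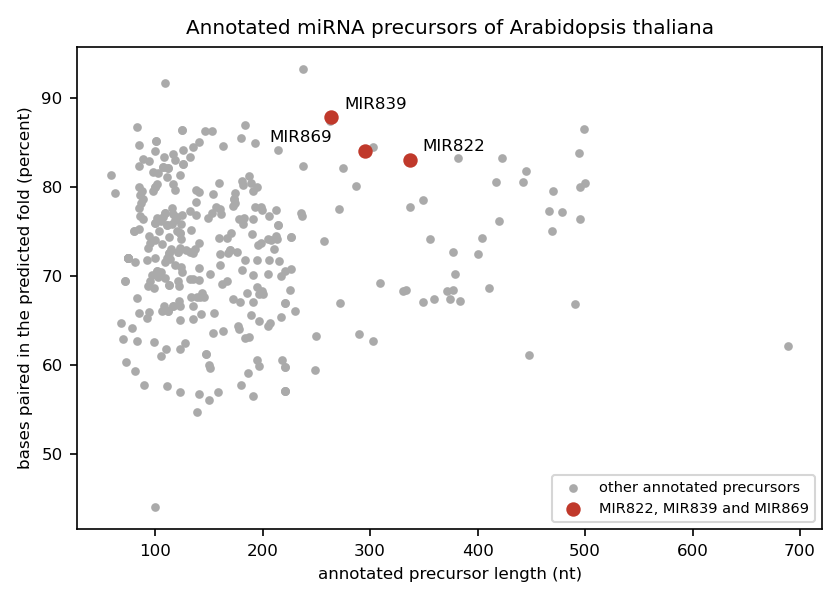
Length in nt (horizontal axis) and percent of bases paired in the predicted fold (vertical axis) of 325 annotated miRNA precursors, 1 point each, with MIR822, MIR839 and MIR869 in red. The 3 precursors are 264 to 337 nt long with 83.1 to 87.9% of bases paired, above the medians of 145 nt and 73.0%.

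miR822-5p and miR839-5p lie on the 5′ arm of their precursors, and miR822-3p, miR869.1 and miR869.2 on the 3′ arm. In its fold miR839-5p had no unpaired base, miR822-5p, miR822-3p and miR869.1 had 1 each and miR869.2 had 3. The 2 strands of MIR822 face each other, 199 nt apart along the precursor, and are shown again with the 18 bases of each that pair with the other strand in capitals.
miR822-5p: TGcGGGAAGCATTTGCACAtg
miR822-3p: TGTGCAAATGCTTTCTaCAgg
Both strands end in 2 bases that do not pair with the other strand, the overhang that a Dicer enzyme leaves. The 2 sequences of MIR869 are not opposite strands but neighbours on the same arm that share 10 bases, shown in capitals.
miR869.1: attggttcaatTCTGGTGTTG
miR869.2: TCTGGTGTTGagatagttgac
A single precursor molecule can therefore yield 1 of the 2 but not both.

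The transcripts of 31464 annotated genes were searched for stretches complementary to a member with at most 3 mismatches, a G:U pair counting as a mismatch. Only miR822-5p had any, in 4 genes, and all 4 encode Cysteine/Histidine-rich C1 domain family proteins, a product that 151 of the genes searched (0.480%) carry. The sites are shown because they pair with nearly the whole miRNA, with the mismatched bases in capitals. They lie in the coding part of AT2G13900 (chr2:5834363-5834383, plus strand), AT5G02330 (chr5:487967-487987, minus strand) and AT5G02350 (chr5:495991-496011, minus strand), which carry the same 21 bases, and of AT2G02620 (chr2:718515-718535, plus strand).
AT2G13900: catgtgcaaatgcttcTcgca
AT2G02620: catgtgcaGatgctCcccgca
The MIR822 precursor itself resembled 42 of these genes (blastn, E value of 1e-05 or less), of which 41 have a C1 domain product, and 20 of the 42 matched the precursor in both orientations. The same search matched MIR839 to 2 genes and MIR869 to 1, none with a C1 domain product and 0 in both orientations for either precursor. A complementary stretch is a description of sequence, and no transcript was measured in these libraries.

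The members differed widely in abundance. Over all 39 libraries miR822-5p had 68708 reads and ranked 27 of the 353 sequences, with 531 to 2924 reads a library. miR869.2 had 16930 reads and ranked 54, with 32 to 1021 reads a library. miR822-3p had 1042 reads (6 to 120 a library) and miR839-5p had 844 (7 to 50 a library), so the counting error of both is large. miR869.1 had 1 read in all, in replicate 3 of H0, and none in the other 38 libraries. Its 3-read limit, set by 3 counts of the miRNA reads of a library, was 0.596 to 2.94 reads per 1000000 miRNA reads (CPM), and miR869.1 entered no test. These limits cover counting error only.

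miR869.2 was the member whose level depended most on the plant material. In rosette leaves it had 12.9, 9.88 and 14.1 CPM in D30, 16.0, 15.1 and 14.8 CPM in C30, 14.7, 12.1 and 22.8 CPM in D20 and 19.1, 17.7 and 23.8 CPM in C20. In the heat experiment it had 195, 169 and 220 CPM in H0, 153, 169 and 208 CPM in H0.5 and 181, 150 and 194 CPM in H6. All 9 heat libraries thus exceeded all 12 leaf libraries. In the other seedlings it had 221, 119 and 150 CPM in NaCl+, 114, 96.6 and 109 CPM in Cu-, 141, 134 and 127 CPM in Cu+, 98.8, 115 and 104 CPM in Cd+, 131, 133 and 161 CPM in S-, and 134, 152 and 126 CPM in C. Across all conditions the 12 leaf libraries held 9.88 to 23.8 CPM and the 27 seedling libraries 96.6 to 221 CPM, with no overlap. Ordered by mean, the conditions ran from H0 (195 ± 25.3 CPM, SD, n = 3) down to D30 (12.3 ± 2.16 CPM, n = 3). Neighbours in that order overlapped in their replicates except Cu+ with Cu-, Cd+ with C20, and C30 with D30.

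miR822-5p varied less between conditions. It had 585, 515 and 566 CPM in D30, 532, 578 and 578 CPM in C30, 453, 637 and 691 CPM in D20 and 585, 495 and 578 CPM in C20. In the heat experiment it had 343, 594 and 390 CPM in H0, 290, 391 and 274 CPM in H0.5 and 315, 418 and 418 CPM in H6. Replicate 2 of H0 was the highest of these 9 libraries. It had 666, 423 and 521 CPM in NaCl+, 423, 422 and 376 CPM in Cu-, 420, 405 and 419 CPM in Cu+, 391, 394 and 423 CPM in Cd+, 468, 472 and 519 CPM in S-, and 520, 596 and 514 CPM in C. Its condition means spanned 1.87-fold, against 15.9-fold for miR869.2, and every pair of neighbours in the order of means overlapped. Per 1000000 mapped reads the spans were 3.03-fold (C over NaCl+) for miR822-5p and 23.6-fold for miR869.2, and with TMM factors over all libraries 1.52-fold for miR822-5p and 27.3-fold for miR869.2.

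miR822-3p, the minor strand of MIR822, had 1.22 to 31.6 CPM. The highest libraries were replicate 1 of NaCl+ with 31.6 CPM and replicate 2 of C with 30.7 CPM. The C libraries differed among themselves, with 15.8, 30.7 and 5.42 CPM from 68, 120 and 23 reads. The lowest condition mean was that of H6 (2.05 ± 0.680 CPM, SD, n = 3). miR839-5p had 2.24 to 18.3 CPM, with its highest mean in C20 (12.3 ± 5.56 CPM, SD, n = 3) and its lowest in H6 (3.47 ± 0.423 CPM, SD, n = 3). For both miRNAs every pair of neighbouring conditions overlapped.

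**Figure D2:**
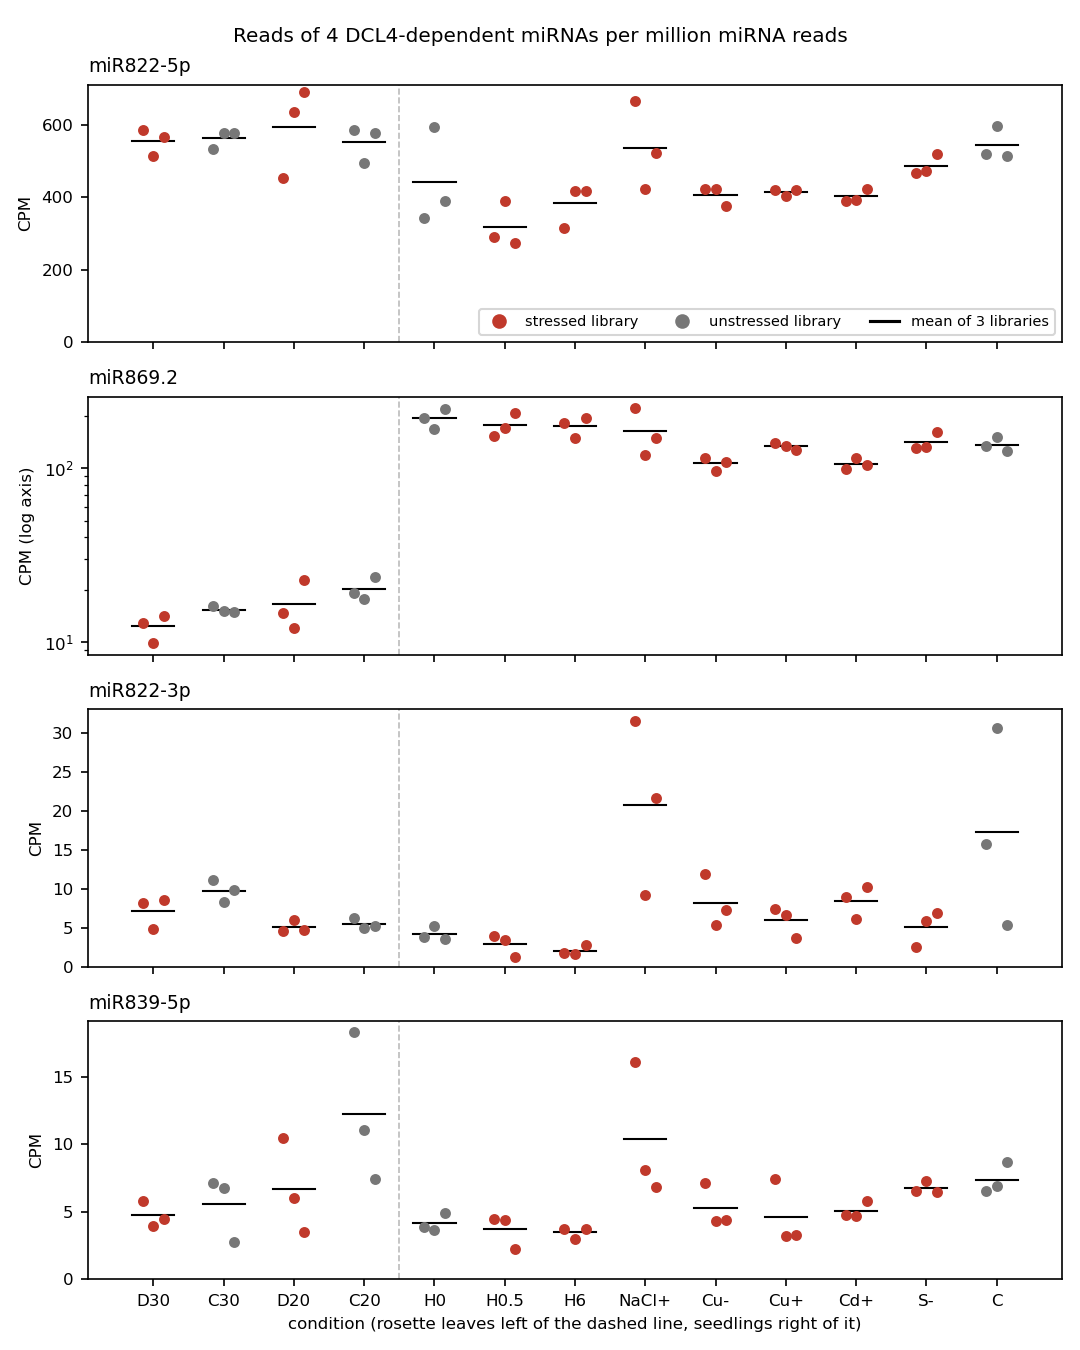
Reads per 1000000 miRNA reads (CPM, vertical axis, logarithmic for miR869.2 only) of 4 members in each of 13 conditions (horizontal axis), with 1 point per library, red for stressed and grey for unstressed, and a line at the mean of 3 libraries. miR869.2 lies between 9.88 and 23.8 CPM in the leaf libraries left of the dashed line and between 96.6 and 221 CPM in the seedling libraries right of it, while miR822-5p stays between 274 and 691 CPM throughout.

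The difference between leaves and seedlings was tested on the unstressed libraries alone, 3 each of C30 and C20 against 3 each of H0 and C, with edgeR's quasi-likelihood test across all sequences. miR869.2 was lower in leaves, with 17.8 ± 3.36 CPM in leaves and 166 ± 36.5 CPM in seedlings (SD, n = 6 each), a log2 fold change of -3.84 (SE 0.13, 95% interval -4.13 to -3.55, edgeR adjusted p = 4.0e-10). It was lower in 6 of 6 leaf libraries, and its log2 fold change was the 8th lowest of 185 sequences tested. Of the 4 members tested, 3 passed the test, all lower in leaves, where 51.9% of all 185 sequences passed in either direction and 30.8% passed as lower, so for miR822-5p and miR822-3p the call says little about the member itself. Only miR869.2 of the 4 had leaf and seedling libraries that did not overlap in CPM, as did 36.2% of all sequences, 9.73% as lower.

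miR822-5p had 558 ± 36.3 CPM in leaves and 493 ± 105 CPM in seedlings (SD, n = 6 each), and with TMM factors a log2 fold change of -0.45 (SE 0.16, edgeR adjusted p = 0.0274). On the scale of total miRNA reads, where the median of all sequences moved up by 0.63, the change turned to 0.19 (edgeR adjusted p = 0.260). miR822-3p had 7.63 ± 2.55 CPM in leaves and 10.8 ± 10.8 CPM in seedlings, with a log2 fold change of -0.83 (SE 0.32, edgeR adjusted p = 0.0441), which without replicate 2 of C was -0.27 (edgeR adjusted p = 0.459). The call was also lost with RLE factors, without the filter on low counts and with DESeq2 (adjusted p of 0.0640, 0.0509 and 0.0937). It remained when replicate 3 of H0 or replicate 3 of C was left out and was lost when any other single library was. For miR822-5p the value without replicate 2 of C was -0.19 (edgeR adjusted p = 0.340), and the call was lost without any single leaf or C library and held without each H0 library. miR839-5p had 8.90 ± 5.32 CPM in leaves and 5.76 ± 1.97 CPM in seedlings, with a log2 fold change of -0.09 (SE 0.27, edgeR adjusted p = 0.833) that became 0.56 on the scale of total miRNA reads. miR869.2 kept its call in every alternative, with log2 fold changes of -3.85 to -3.21.

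The lower level of miR869.2 in leaves appeared against each seedling control. C30 averaged 15.3 CPM and C20 20.2 CPM, against 195 CPM in H0 and 137 CPM in C, and the mean was higher in seedlings by 6.79-fold (C over C20) to 12.7-fold (H0 over C30). Per 1000000 reads mapped to the genome, miR869.2 averaged 5.89 in leaves and 71.3 in seedlings (exact permutation test, two-sided, p = 0.00216, the smallest that 6 against 6 can give). The permutation pooled C30 with C20 and H0 with C as exchangeable libraries and did not use these groups. The leaf and seedling libraries also differed in age, growth medium and experiment, so these cannot be told apart from the organ. miRNAs made up 26.3 to 40.9% of mapped reads in these 6 leaf libraries and 36.9 to 50.1% in the 6 seedling libraries, and RNA integrity numbers were 8.3 to 9.3 in the leaf libraries and 8.0 to 8.9 in the seedling libraries. The part of these differences in the result was not tested.

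A share taken within a library does not depend on scaling between libraries. miR869.2 made up 2.16, 1.88 and 2.42% of the reads of miR869.2 and miR822-5p together in D30, 2.93, 2.55 and 2.50% in C30, 3.14, 1.87 and 3.19% in D20 and 3.16, 3.45 and 3.95% in C20. In seedlings it made up 18.6 to 43.1%. The lowest seedling share (Cu- replicate 2) was several times the highest leaf share (C20 replicate 3). Between the unstressed leaves and seedlings, the mean log2 ratio of miR869.2 to miR822-5p was -4.98 in leaves and -1.57 in seedlings, a difference of -3.41 (exact permutation test, two-sided, p = 0.00216, n = 6 each). The permutation again pooled C30 with C20 and H0 with C, so its p does not allow for differences between the pooled groups. Unstressed seedlings of separate experiments had 36.3, 22.2 and 36.1% in H0 and 20.4, 20.3 and 19.6% in C, a difference that was not tested.

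The share of miR822-3p among the reads of both miR822 strands stayed under 5% in every library. It was lowest in H6 with 0.548, 0.379 and 0.672%, against 1.11, 0.881 and 0.910% in H0. All H6 shares thus lay below all H0 shares. The Wilson 95% intervals of these 6 libraries overlapped, for example 0.192 to 0.745% in H6 replicate 2 and 0.602 to 1.29% in H0 replicate 2. The highest shares were 4.53, 2.14 and 3.98% in NaCl+ and 2.95, 4.90 and 1.04% in C. Between replicates 2 and 3 of C the intervals did not overlap (4.11 to 5.82% and 0.696 to 1.56%), so the spread between these replicates exceeded counting error. Between unstressed leaves and seedlings the mean log2 strand ratio was -6.23 in leaves and -5.96 in seedlings (exact permutation test with the same pooling, two-sided, p = 0.602, n = 6 each).

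**Figure D3:**
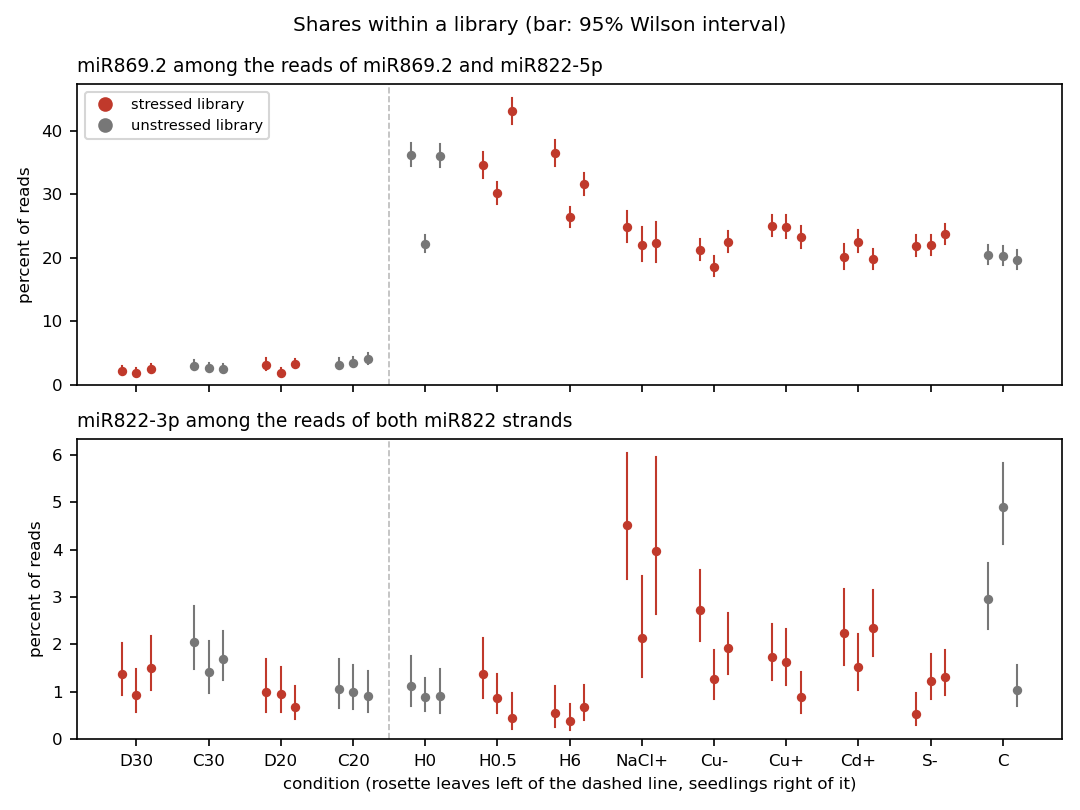
Percent of reads (vertical axis) taken by miR869.2 among miR869.2 and miR822-5p (upper panel) and by miR822-3p among both miR822 strands (lower panel) in each condition (horizontal axis), with 1 point per library, red for stressed and grey for unstressed, and bars for 95% Wilson intervals. The upper share is 1.87 to 3.95% in leaves and 18.6 to 43.1% in seedlings, and the lower share spans 1.04 to 4.90% within the 3 libraries of C.

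The 9 stress comparisons asked whether a stress shifts these miRNAs from their own unstressed control. None of the 4 members tested passed edgeR's test in any of them. Of all sequences, 0.602% passed in D30, 19.8% in D20, 1.23% in H0.5, 6.79% in H6, 33.3% in NaCl+, 10.5% in Cu-, 1.24% in Cu+, 11.2% in Cd+ and 0.0% in S-. DESeq2, counted at an adjusted p under 0.05, called 0 members in all 9, and the share of all sequences that it called was not counted. At an unadjusted edgeR p under 0.05 the counts were 1 of 4 in D20, 2 in Cu+, 2 in Cd+, 1 in S- and 0 in the other 5. Of all sequences, 34.1% had such a p in D20, 12.4% in Cu+, 25.6% in Cd+ and 4.97% in S-, and 15.1% in D30, 12.3% in H0.5, 11.7% in H6, 40.4% in NaCl+ and 30.9% in Cu-. The median log2 fold change of the 4 members was -0.49 (Cu+) to 0.17 (NaCl+), beside medians of -0.11 (D20) to 0.13 (NaCl+) over all sequences. A one-way F test over the CPM values, with no adjustment of its p (threshold 0.05), called 1 member in H6, 2 in Cu-, 1 in Cu+ and 3 in Cd+, where it called 9.44%, 15.8%, 8.01% and 13.5% of all sequences. It called 0 members in D30, D20, H0.5, NaCl+ and S-, where it called 9.59%, 19.9%, 9.86%, 24.9% and 5.15% of all sequences. The libraries of a stress lay wholly below those of its control in CPM for 1 member in D30, 1 in H6, 2 in Cu-, 1 in Cu+ and 3 in Cd+, and for none in D20, H0.5, NaCl+ or S-. No member lay wholly above, but the share of all sequences wholly above was not counted, so no direction is read from this. Of all sequences, 6.63% lay wholly below in D30, 12% in D20, 19.0% in H0.5, 16.0% in H6, 17.3% in NaCl+, 18.5% in Cu-, 13.7% in Cu+, 18.8% in Cd+ and 4.97% in S-. Both heat times shared the H0 libraries, and the 5 medium treatments shared the C libraries, so those comparisons are not independent of each other.

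Under drought the largest shift was that of miR839-5p in D20. It had 10.5, 6.05 and 3.48 CPM in D20, against 18.3, 11.0 and 7.41 CPM in C20, overlapping ranges with a log2 fold change of -1.11 (SE 0.47, 95% interval -2.20 to -0.02, edgeR adjusted p = 0.137). miR869.2 had 3 D30 libraries below all 3 C30 libraries, but its log2 fold change of -0.45 (SE 0.23, edgeR adjusted p = 0.357) was not past the test. In D20 it was -0.56 (SE 0.29, edgeR adjusted p = 0.240) with overlapping libraries. For miR822-5p, the strand with the complementary sites in C1 domain genes, the 95% intervals were -0.52 to 0.23 in D30 and -0.60 to 0.27 in D20. The difference between the effects of severe and mild drought, tested as an interaction over the 12 leaf libraries, passed for 0 of 4 members and for 3.39% of all sequences. No member had an unadjusted p under 0.05 in that test, where 19.8% of all sequences did. DESeq2, counted at an adjusted p under 0.05, called 0 members as well, again with no share of all sequences counted.

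Under heat the estimates for miR869.2 lay near 0 and their sign depended on the scale. The log2 fold change of miR869.2 was 0.27 in H0.5 (95% interval -0.24 to 0.78) and 0.07 in H6 (95% interval -0.51 to 0.65), and both turned negative on the scale of total miRNA reads (-0.14 and -0.15). That scale moved the median of all sequences by -0.40 in H0.5 and by -0.22 in H6. miR822-3p had 1.73, 1.59 and 2.83 CPM in H6, against 3.86, 5.28 and 3.58 CPM in H0. These groups did not overlap, but they rest on 28 reads in H6 and 60 in H0, and the log2 fold change was -0.86 (SE 0.38, edgeR adjusted p = 0.418). This was the member called in H6 by the one-way F test over CPM, at an unadjusted p of 0.0292.

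Under salt the calls depended on the scale, beside the low miRNA share of the NaCl+ libraries. On TMM factors the log2 fold changes were -0.13 for miR822-5p, 0.16 for miR869.2, 0.18 for miR822-3p and 0.40 for miR839-5p, with edgeR adjusted p of 0.515 to 0.820. Per 1000000 reads mapped to the genome, miR822-5p had 89.7, 70.8 and 51.3 in NaCl+, against 215, 220 and 207 in C. On that scale all 4 members passed as lower in NaCl+, with log2 fold changes of -1.60 to -1.05, as did 74.2% of all sequences, while the median of all sequences moved by -1.44 with the same change of scale.

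Among the metal and sulfur treatments, miR822-5p in Cd+ came nearest to the threshold. It had 391, 394 and 423 CPM in Cd+, against 520, 596 and 514 CPM in C, with no overlap and a log2 fold change of -0.40 (SE 0.12, 95% interval -0.67 to -0.14, edgeR adjusted p = 0.0628, 0.0911 to 0.615 with other edgeR settings and DESeq2). It also lay below all 3 C libraries in Cu- (log2 fold change -0.29, SE 0.15, edgeR adjusted p = 0.210) and in Cu+ (-0.34, SE 0.11, edgeR adjusted p = 0.187), groups that share the same C libraries. In S- the log2 fold change of miR822-5p was -0.11 (95% interval -0.38 to 0.16).

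miR869.2 had a log2 fold change of -0.34 in Cd+ (SE 0.14, edgeR adjusted p = 0.158) and of -0.24 in Cu- (SE 0.16, edgeR adjusted p = 0.325), in both with 3 libraries below all of C, and of 0.01 in Cu+ (95% interval -0.26 to 0.29). In the direct comparison of copper deficiency with copper excess it had 114, 96.6 and 109 CPM in Cu-, against 141, 134 and 127 CPM in Cu+. These did not overlap, with 13.9% of all sequences wholly below in the same way, and the log2 fold change of -0.39 (SE 0.14) had an edgeR adjusted p of 0.225. In that comparison 0 of 4 members and 0.0% of all sequences passed the test. At an unadjusted p under 0.05 edgeR gave 1 member and 16.3% of all sequences. The one-way F test on CPM gave 1 member and 10.2% at an unadjusted p of 0.05 or less. DESeq2, counted at an adjusted p under 0.05, called 0 members, again with no share of all sequences counted.

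miR822-3p had the lowest log2 fold change of all 161 sequences tested both in Cu+ (-1.46, SE 0.56, edgeR adjusted p = 0.326) and in S- (-1.65, SE 0.60, edgeR adjusted p = 0.705). Both values moved with the C libraries. Without replicate 2 of C they were -0.84 (edgeR adjusted p = 0.518) and -1.07 (edgeR adjusted p = 0.824), and without replicate 3 of C -1.88 (edgeR adjusted p = 0.162) and -2.08 (edgeR adjusted p = 0.165). In Cd+ miR822-3p had a log2 fold change of -0.98 (SE 0.49, edgeR adjusted p = 0.244) that passed the test only without replicate 3 of C (-1.37, edgeR adjusted p = 0.0125) and without the filter on low counts (-0.97, edgeR adjusted p = 0.0170). miR839-5p had 4.78, 4.67 and 5.80 CPM in Cd+, against 6.51, 6.90 and 8.72 CPM in C, with no overlap and a log2 fold change of -0.51 (SE 0.26, edgeR adjusted p = 0.244). Its log2 fold changes were -0.63 in Cu+, -0.37 in Cu- and -0.09 in S-, with edgeR adjusted p of 0.390 to 0.939.

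**Figure D4:**
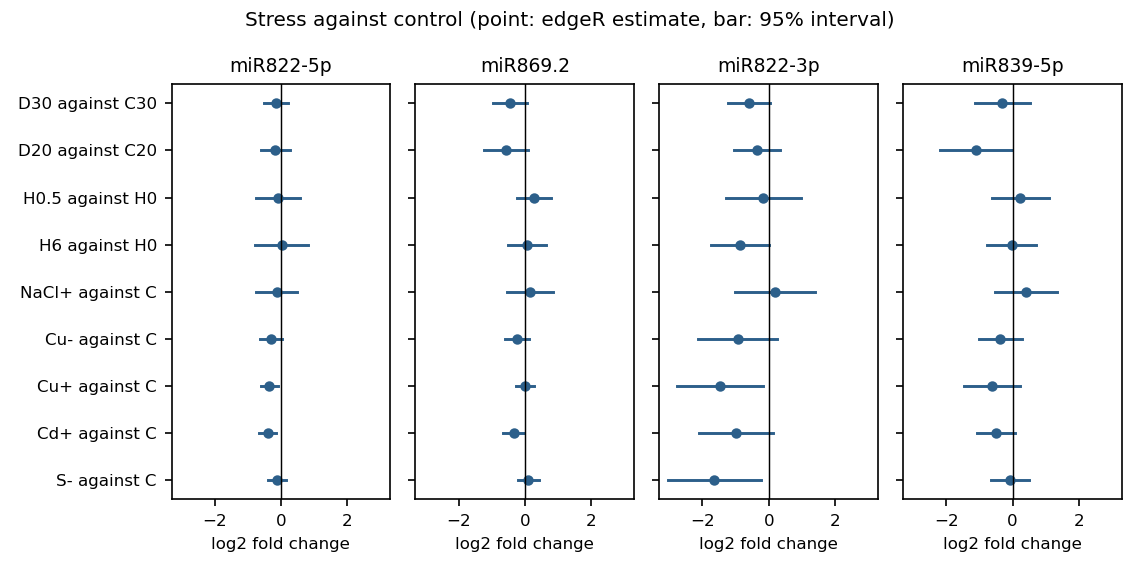
Log2 fold change of each stress against its control (horizontal axis) for 4 members in 9 comparisons (rows), with points for edgeR estimates and bars for 95% intervals. In S- the interval runs from -3.05 to -0.24 for miR822-3p and from -0.38 to 0.16 for miR822-5p, and no point passed the adjusted threshold of 0.05.

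No ratio within libraries passed its test under stress. Over the 9 comparisons the log2 ratio of miR869.2 to miR822-5p differed from its control by -0.41 to 0.36, and the strand ratio of miR822 by -1.38 to 0.47. With 3 libraries against 3, an exact permutation test cannot go below p = 0.1, and after adjustment over 9 comparisons the two-sided p was at least 0.225 for miR869.2 to miR822-5p and at least 0.675 for the strands. The ratio of miR869.2 to miR822-5p reached the smallest possible p of 0.1 in D30, NaCl+, Cu+ and S-, below C30 in D30 and above C in the other 3. The strand ratio of miR822 reached it in H6 only, with a log2 difference of -0.855 from H0 (exact permutation test, adjusted p = 0.675). In Cu+ miR869.2 made up 25.1, 24.9 and 23.3% of both, against 20.4, 20.3 and 19.6% in C.

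The sequences whose levels followed each member most closely were looked up among the other 166 averaging at least 10 reads a library, by Pearson's r (Spearman's rho in parentheses) over the 13 condition means of log2(CPM + 1). These points share libraries, and for miR869.2 the leaf and seedling conditions form separate clusters, so r is a description only. miR869.2 was most like miR156a-3p with r = 0.96 (0.82), miR399f with 0.95 (0.92) and the miR156a-5p sequence, which several MIR156 genes share, with 0.95 (0.79). The miR156 family is known for repressing SPL genes in young plants, and miR399 for repressing PHO2 in phosphate uptake. miR822-5p was most like miR161.2 with 0.95 (0.90), miR173-5p with 0.94 (0.92) and miR5026 with 0.92 (0.96). miR822-3p was most like miR773a with 0.80 (0.68), miR397a with 0.78 (0.73) and the sequence of miR171b-3p and miR171c-3p with 0.78 (0.70). miR839-5p was most like miR400 with 0.77 (0.86), miR170-3p with 0.76 (0.71) and miR1886.1 with 0.76 (0.80). No member was among the 3 nearest of another. The 2 strands of miR822 had r = 0.57 (0.39), miR822-5p and miR839-5p 0.67 (0.63), and miR869.2 and miR822-5p -0.69 (-0.67).

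A pair of lists of related miRNAs was counted beside the members. They were taken by miRNA number, so opposite strands of the same hairpins count as well. The first holds miR173, miR390 and miR828, known as triggers of trans-acting siRNAs, the other products of DCL4. Of 6 such sequences 4 were tested in each comparison. In D20 2 fell, the miR390a-5p and miR390b-5p sequence (log2 fold change -0.86, SE 0.15, edgeR adjusted p = 0.00895) and miR173-3p, the opposite strand of the miR173 hairpin (-1.04, SE 0.20, edgeR adjusted p = 0.0123). In H6 miR173-3p fell (-1.27, SE 0.27), in NaCl+ the miR390 sequence fell (-0.78, SE 0.25, a call lost on total miRNA reads with an edgeR adjusted p of 0.0738), and miR173-5p fell in Cu- (-0.61, SE 0.14) and in Cd+ (-0.65, SE 0.12). None rose under stress, none passed in D30, H0.5, Cu+ or S-, and in leaves against seedlings miR173-3p was higher (0.51, SE 0.16).

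The second group holds miR162, miR168 and miR403, taken by number in the same way. These miRNAs are known for targeting DCL1, AGO1 and AGO2, genes of the miRNA machinery itself. Of 7 sequences 5 to 7 were tested. Under stress 1 passed, the miR168a-5p and miR168b-5p sequence, which rose in Cu- (0.48, SE 0.12, edgeR adjusted p = 0.0312). With RLE factors, total miRNA reads or DESeq2 this call was lost (adjusted p of 0.0746 to 0.196). Between leaves and seedlings 4 of 6 passed. Higher in leaves were the miR162a-3p and miR162b-3p sequence (0.77, SE 0.14), the miR168a-5p and miR168b-5p sequence (0.60, SE 0.13) and miR168b-3p (1.62, SE 0.34). The last is the opposite strand of a miR168 hairpin. Lower was miR403-3p (-0.37, SE 0.12), which turned to 0.28 on the scale of total miRNA reads. These counts stand beside the shares of all sequences given above and were not tested against them.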

How the data were processed

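Small RNA reads were counted by the authors against the mature miRNAs of miRBase, with unmatched reads trimmed at both ends and matched again, and the deposited counts per sequence, 1 column a library, were used as given. The deposited number of reads, reads mapped to the genome (Bowtie 1.0.0, TAIR10), percent mapped and the deposited RNA integrity number, an instrument score, were used to describe libraries. The deposited mean CPM, the ratio (fold change) and the p-value of the authors' own comparisons were not used. CPM was computed from the counts as reads per 1000000 miRNA reads of the library. The counts of 15 control columns repeated between tables were equal. Sequences were tested with edgeR 4.0.16 (TMM factors, filterByExpr with a minimum count of 10, quasi-likelihood test, Benjamini-Hochberg adjustment over all sequences kept, threshold 0.05), and DESeq2 1.42.0 was an alternative. The fit was tested on simulated data. Intervals are estimate ± t times SE, with SE the log2 fold change over the root of F. Log2 ratios used counts plus 0.5, tested with exact permutation tests (scipy 1.17.1). Precursors and positions came from the TAIR10.1 annotation by exact match, folded with RNAfold 2.7.2 and searched with blastn 2.17.0. All 5 members are named, the 3 sequences most like each are those with the highest r, and the members and lists were chosen with earlier results of these data known. Replicate numbers were taken to pair samples where r of the deviations of same-numbered samples was over 0.1 in all 3 pairs, which held for H6 with H0 only (r = 0.41, 0.73 and 0.58 over 167 sequences). The labels call the samples biological replicates.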

Additional observations from a re-analysis of the deposited data

How the results depend on the processing

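The call of miR869.2 between leaves and seedlings held in all alternatives. Other counts of members called moved. Shares of all sequences were counted only for the main fit, for the F test and for mapped reads in NaCl+, as given above. The counts below thus show only how far the calls depend on the setting. Between leaves and seedlings 3 were called, but 2 with RLE factors, without the filter or with DESeq2 (miR822-3p lost in each), 1 on the scale of total miRNA reads or of mapped reads, and 1 to 3 when 1 library was left out. In NaCl+ 4 were called on mapped reads, in Cd+ 1 without the filter and 0 to 1 when 1 library was left out. The one-way F test on CPM called 1 in H6, 2 in Cu-, 1 in Cu+, 3 in Cd+ and 1 in Cu- against Cu+. The highest over the lowest condition mean was 27.3 (TMM over 39 libraries) and 23.6 (mapped reads) in place of 15.9 for miR869.2, and 3.03 (mapped reads) in place of 1.87 for miR822-5p.

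With the replicate number as a block (replicate block), 0 members were called in each stress comparison and 2 between leaves and seedlings. The share of all sequences called with the block was not counted. Between leaves and seedlings miR822-3p had a log2 fold change of -0.74 with the block (edgeR adjusted p = 0.0727). Leaves and seedlings came from separate experiments, so a shared number pairs no leaf with a seedling library. In H6, the only comparison where replicate numbers were taken to pair samples, the block changed no call. The main edgeR test and the ratio tests took H6 and H0 as unpaired.

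These log2 fold changes changed sign, and the cause was not tested. Except for miR822-5p between leaves and seedlings (-0.45), none was called before the change, and in NaCl+ the scale of mapped reads moved the median of all sequences by -1.44. With DESeq2 they were -0.00081 for miR822-5p (H6), -0.00079 for miR822-3p and -6.51e-05 for miR869.2 (NaCl+), -0.0028 for miR822-5p and -0.078 for miR869.2 (interaction of drought levels) and 0.0075 for miR839-5p (leaves). With RLE factors they were -0.0027 for miR822-5p (H6), and -0.018 for miR822-5p and -0.096 for miR869.2 (interaction). On mapped reads they were -0.12 for miR839-5p and -0.087 for miR869.2 (H0.5), -0.23 for miR822-5p and -0.18 for miR869.2 (H6), -1.34 for miR822-3p, -1.05 for miR839-5p and -1.32 for miR869.2 (NaCl+), and 0.18 for miR839-5p (leaves). On total miRNA reads they were 0.10 for miR822-5p (D20), -0.16 for miR839-5p and -0.14 for miR869.2 (H0.5), -0.21 for miR822-5p and -0.15 for miR869.2 (H6), -0.031 for miR869.2 (Cu+), and 0.19 for miR822-5p and 0.56 for miR839-5p (leaves). The CPM of the F test gave 0.10 for miR822-5p (D20), -0.15 for miR839-5p and -0.14 for miR869.2 (H0.5), -0.21 for miR822-5p and -0.15 for miR869.2 (H6), and -0.031 for miR869.2 (Cu+). The joint fit of 39 libraries gave 0.017 for miR822-5p (D20), -0.037 for miR839-5p and -0.026 for miR869.2 (H0.5), -0.055 for miR822-5p and -0.018 for miR869.2 (H6), -0.024 for miR822-3p and -0.045 for miR869.2 (NaCl+), and 0.067 for miR822-5p (Cu- against Cu+). Without the filter they were -0.068 for miR822-5p and -0.046 for miR869.2 (H6), -0.038 for miR822-3p and -0.0395 for miR869.2 (NaCl+), 0.037 for miR822-5p (Cu- against Cu+) and -0.016 for miR869.2 (interaction).

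Leaving out 1 library gave ranges across 0. These were -0.20 to 0.032 for miR822-5p (D20), -0.50 to 0.055 for miR822-3p, -0.39 to 0.21 for miR822-5p and -0.084 to 0.37 for miR839-5p (H0.5), -0.23 to 0.18 for miR822-5p and -0.17 to 0.13 for miR869.2 (H6). In NaCl+ they were -0.38 to 0.73 for miR822-3p, -0.33 to 0.0304 for miR822-5p, -0.059 to 0.59 for miR839-5p and -0.15 to 0.36 for miR869.2. They were -0.045 to 0.046 for miR869.2 (Cu+), -0.20 to 0.091 for miR839-5p and -0.018 to 0.13 for miR869.2 (S-), -0.16 to 0.63 for miR839-5p (Cu- against Cu+), -0.17 to 0.27 for miR822-5p and -0.43 to 0.21 for miR869.2 (interaction) and -0.23 to 0.26 for miR839-5p (leaves). The miR822 strand log2 ratio ranged over -0.60 to 0.18 (H0.5), -0.15 to 0.98 (NaCl+), -1.035 to 0.096 (Cu-), -0.94 to 0.19 (Cd+) and -0.43 to 0.077 (leaves), and the log2 ratio of miR869.2 to miR822-5p over -0.021 to 0.49 (H0.5), -0.31 to 0.20 (H6), -0.017 to 0.16 (Cu-) and -0.013 to 0.11 (Cd+). With 21.6 to 26.7 reads a library on average, miR839-5p and miR822-3p limit what these libraries can show.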
